A study of Mus musculus with 6 samples.

Results

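The 43 genes described here encode the lysosome and the proton pump that acidifies it. They were chosen by symbol, for the known function of each gene, and all 43 were found among the 54446 gene rows of the count table. By role they are 11 proteases, the protease inhibitor Cst3, 8 glycosidases, 4 genes of lipid handling, 5 membrane proteins including a calcium channel, the secreted and lysosomal protein granulin, 3 transcription factors and 10 genes of the vacuolar proton pump (V-ATPase). The cells were bone marrow-derived macrophages (BMDMs) of male BALB/c mice aged 6 to 8 weeks, grown for 7 days in medium with 20% L929-conditioned medium, a source of the growth factor CSF-1, and 10% fetal bovine serum. They were left unpolarized (M0) or polarized for 24 hours. M1 cells received 20 ng/mL of IFN-γ together with 50 ng/mL of LPS, and M2 cells received IL4 at 20 ng/mL. Each state was sequenced with control treatment, given as DMSO in the treatment protocol, and with regorafenib, an oral inhibitor of several kinases. The drug was used at 1 µM and was given 1 hour before polarization. There was 1 library per condition and 6 in all, and the sources used here do not say how many mice gave the cells or whether the 6 cultures came from the same mice. The comparisons therefore ask how the lysosomal genes differed between the states of polarization, and how they differed with the drug within each state.

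The lysosome is the compartment in which macrophages degrade what they engulf. Cathepsins and other proteases, glycosidases and lipases work there at an acid pH that the V-ATPase maintains by pumping protons across the membrane with its V0 sector, driven by ATP hydrolysis in its cytosolic V1 sector. Many of these genes are controlled together by the transcription factors TFEB, TFE3 and MITF, which bind the letters CACGTG and related sites in promoters.

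The libraries held between 25359309 and 34898342 counts. Marker genes of the states were high where the labels say, except that Arg1 in M2 regorafenib was little above M1 control. Nos2, an M1 marker, held 410649 and 221627 counts in the M1 libraries and between 39 and 50 counts in the other 4 libraries. Mrc1, an M2 marker, held 24237 and 12895 counts in the M2 libraries and at most 805 elsewhere. Arg1, also an M2 marker, held 21798 counts in M2 control, 1017 in M2 regorafenib and 851 in M1 control. With the drug in M2, Retnla went from 941 to 3348 counts and Chil3 from 379 to 675. In the M1 pair, Cxcl9 held 15565 and 16548 counts and Il12b 10147 and 26829. All 8 macrophage markers were detected in every library, while the 4 lymphocyte markers summed to at most 3 counts. Of the markers fixed for neutrophils, Ly6g was at 0 in every library, although Mpo held between 2064 and 5124 counts. In RNA from a whole culture, fewer cells of a type and less RNA per cell cannot be told apart.

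The members ranged from some of the most abundant transcripts of these macrophages to weakly expressed ones. By level per length, 23 of the 43 were among the first 500 of all genes in M0 control, 17 in M1 control and 23 in M2 control, and the lowest member ranked 5953, 11571 and 5151. Together the 43 held 5.78% of all counts in M0 control, 2.93% in M1 control and 6.96% in M2 control. With regorafenib they held 8.54% in M0, 3.03% in M1 and 8.95% in M2, and the exact (Clopper-Pearson) 95% interval of each share was at most 0.0111 percentage points to either side, which covers counting error only. Regorafenib libraries thus held a larger share in all 3 states, with the smallest gap in M1. These shares use total counts without scaling between libraries, so a small gap may depend on that choice. After TMM scaling, described below, the median log2 ratio of the members in M1 was -0.02. The proteases alone held 2.87% and 3.80% of counts in M0 without and with the drug, 1.68% and 1.78% in the M1 pair, and 3.38% and 3.88% in the M2 pair. Without the 4 genes with the most counts summed over the 6 libraries (Psap, Gpnmb, Ctsb and Ctsd) the shares were 2.65% and 3.45% in M0, 1.71% and 1.74% in the M1 pair, and 3.29% and 3.82% in the M2 pair. Expression levels between genes are given per length, as RPKM, the read count divided by the length of annotated exon and by the library size, with the size scaled by TMM, edgeR's scaling between libraries. On this scale Ctss, the macrophage cathepsin S that trims the invariant chain of MHC class II, was the highest member in M0 control (2329) and ranked 7 among all genes. Psap, the precursor of the saposins that present sphingolipids to their hydrolases, was the highest in M2 control (3401) and reached 5732 with the drug, rank 4 of all genes. In M1 control, Ctss (1982) and cathepsin Z (Ctsz, 1906) came first. Tfeb was the lowest member in M0 control at 6.28, and the lowest in M1 control was Atp6v0d2, an alternative form of pump subunit d, at 0.541.

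**Figure D1:**
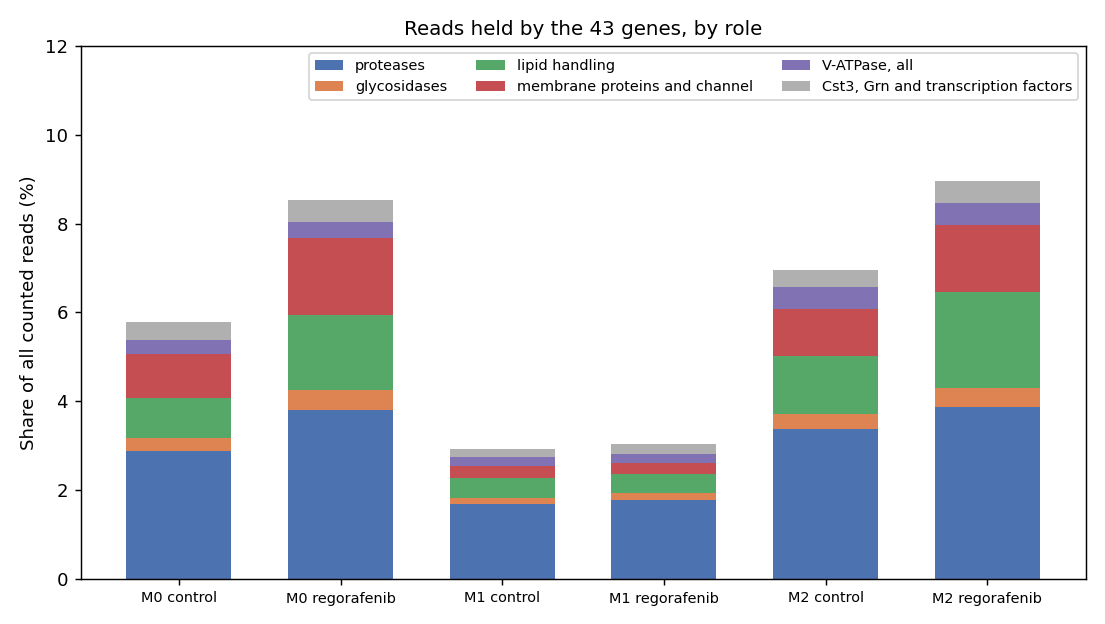
Share of all counted reads held by the 43 genes (y axis, percent) in each of the 6 libraries (x axis), stacked by role, with 1 library per bar and no error bar, since the 95% counting interval of a total is at most 0.0111 percentage points to either side. The M1 bars reach 2.93% and 3.03%, and the M2 regorafenib bar is the highest at 8.95%.

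Regorafenib in M0 macrophages went with higher counts of most lysosomal genes. Of the 43 members, 35 had a ratio of regorafenib to control above 0 on the log2 scale, against 50.3% of the 13964 genes with at least 10 counts in either library. The median log2 ratio of the members was 0.33, against 0.005 for all genes. A gene was called when it differed at least 2-fold with at least 10 counts in either library. At least 2-fold higher were 4 members, Atp6v0d2, Psap, Man2b1 and Hexa, where 9.47% of all genes were called higher, and 0 members were at least 2-fold lower, where 10.9% of all genes were. At this limit the share of members called higher was close to the background, while at a 1.5-fold limit 15 of 43 members were called higher, against 2650 of the 13964 genes. Each side is 1 library, so these ratios have no replicate check and no p-value, and the 95% intervals given with them cover counting error only. The 8 macrophage markers summed to 34428 CPM (counts relative to the library total) in M0 control and 54753 with the drug. Most of that sum was Lyz2, with 797716 and 1408918 counts. The markers did not move together: Csf1r held 52356 and 101392 counts, while Cd14 held 31650 and 16464, Fcgr1 3072 and 1184, and Itgam 5301 and 4154. The 8 neutrophil markers summed to 94.4 and 178 CPM, nearly all of it Mpo, and the 6 fibroblast markers to 3.55 and 11.5 CPM, with 46 and 188 counts of Col1a2. The part of these markers in the members' ratios was not tested.

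In M2 macrophages 28 of the 43 members had a ratio above 0 with regorafenib, against 47.3% of 13813 genes, and their median was 0.21 against -0.03 for all genes. At least 2-fold higher were Ctsc, Ctsh and Naglu (6.15% of all genes), and 0 members were at least 2-fold lower (5.07%). The share of members called higher at this limit was again close to the background. Atp6v0d2 lay just under the limit at a log2 ratio of 0.99, and it passes the limit with total counts or DESeq2's scaling in place of TMM. Marker sums differed here too, with 22878 CPM in M2 control and 36996 with the drug for macrophages, again mostly Lyz2 (610104 and 767800 counts), while Cd14 held 9888 and 5611 counts, Itgam 7927 and 3625, and Fcgr1 710 and 229. The sums were 92.9 and 146 CPM for neutrophils, 3.73 and 6.35 for fibroblasts, and 0.72 and 3.04 for dendritic cells (Zbtb46 at 15 and 59 counts), and the part of these markers was not tested. In M1 macrophages the members lay on both sides of 0. A ratio above 0 was found in 19 members, against 46.5% of 13440 genes, and the median was -0.02, against -0.02 for all genes. No member was at least 2-fold higher (1.76% of all genes), and 1 was at least 2-fold lower (3.46%), the collagen-degrading cathepsin K (Ctsk). Markers differed in the M1 pair too. The macrophage sum was 25907 CPM in M1 control and 28750 with the drug, with 480906 and 493711 counts of Lyz2 and 4314 and 1715 of Fcgr1. The neutrophil sum was 129 and 92.7 CPM, with 1804 and 489 counts of S100a8, and the dendritic cell sum was 26.3 and 32.8 CPM. The part of these markers was not tested. No library enters more than 1 of these 3 comparisons. With total counts in place of TMM, 36 members in M0, 25 in M1 and 32 in M2 had a ratio above 0, so the signs of the smallest ratios depend on the scaling.

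**Figure D2:**
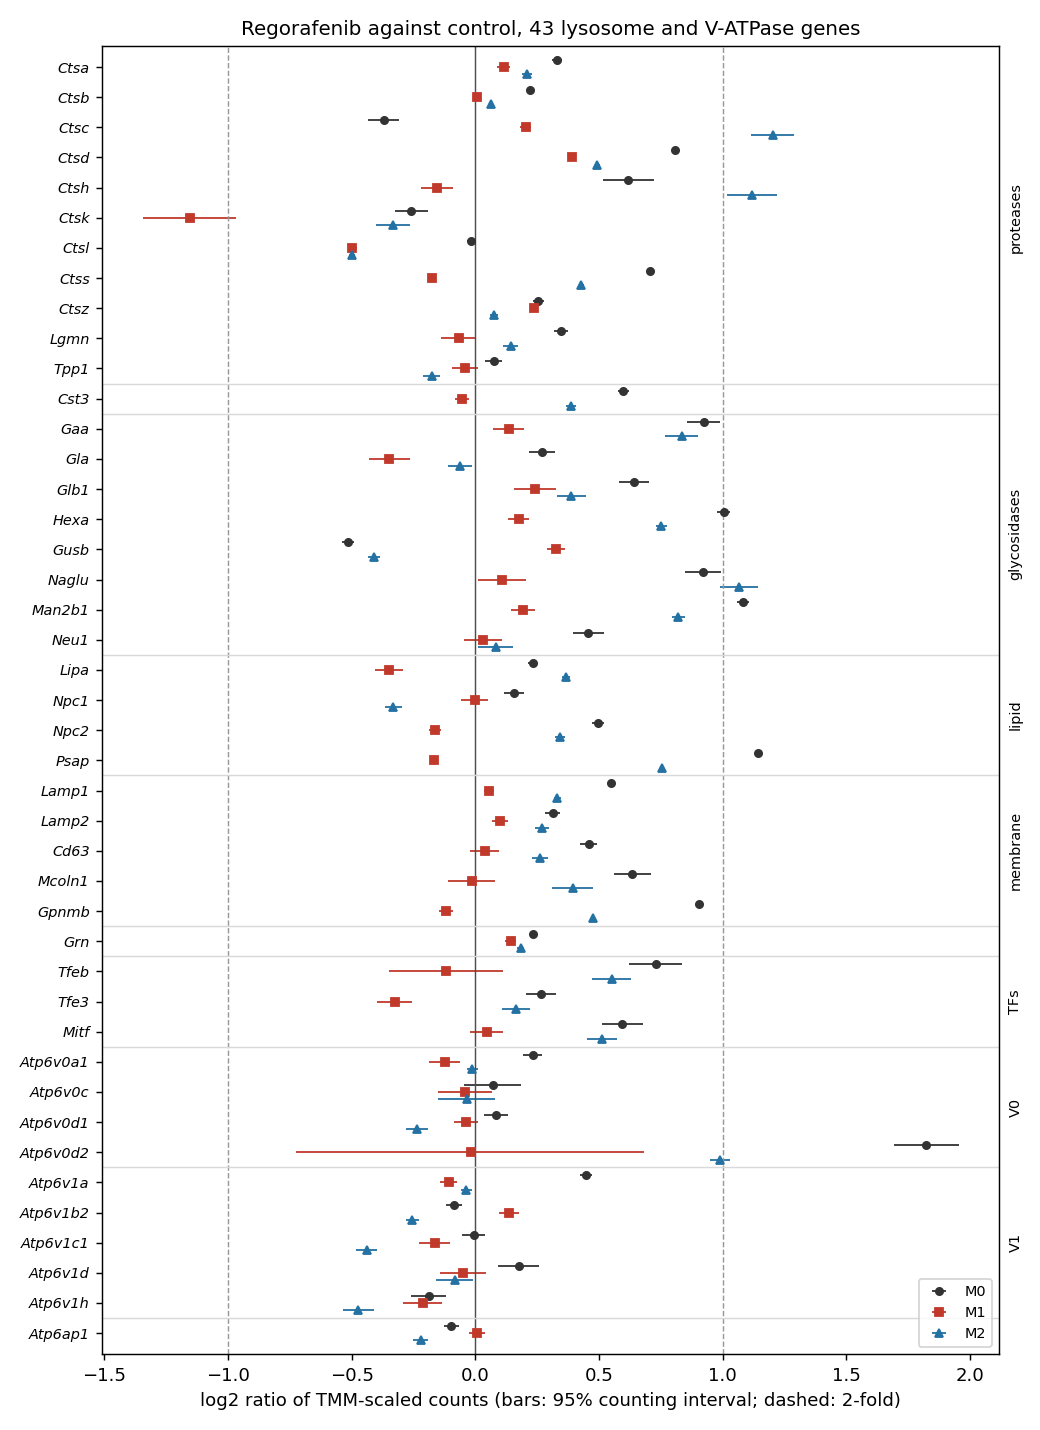
Log2 ratio of regorafenib to control (x axis, TMM-scaled counts) for each of the 43 genes (y axis, grouped by role) in M0 (circles), M1 (squares) and M2 (triangles), 1 library per side, with bars for the 95% counting interval and dashed lines at 2-fold. In M0, 35 of 43 points lie right of 0, in M2 28 and in M1 19, and Atp6v0d2 in M0 is the farthest right at 1.82.

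Among the proteases, the aspartic protease cathepsin D (Ctsd, chromosome 7, 142375911 to 142388038 on GRCm38, the build of all positions here) was higher with the drug in each state. Its counts were 140671 and 264294 in M0 control and regorafenib, 66731 and 81694 in the M1 pair, and 160123 and 172634 in the M2 pair. The log2 ratios were 0.81 in M0, 0.39 in M1 and 0.49 in M2, and the counting intervals of all 3 lay above 0. Cathepsin S had log2 ratios of 0.71 in M0, -0.18 in M1 and 0.43 in M2. Cathepsin B, the most counted protease with 370871 counts in M0 control, differed little, with ratios of 0.22, 0.01 and 0.06. Some proteases went the other way. Cathepsin L (Ctsl) had a log2 ratio of -0.02 in M0 and of -0.50 in both M1 and M2. Cathepsin K held 3907 and 3505 counts in M0, 802 and 336 in the M1 pair, and 4488 and 2730 in the M2 pair, which gives ratios of -0.26, -1.15 and -0.33. It was lower with the drug in all 3 states and past 2-fold in M1.

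Cathepsin C (Ctsc, chromosome 7, 88278085 to 88310888), which activates the serine proteases of granules, and the aminopeptidase cathepsin H (Ctsh) had their largest drug ratios in M2. Ctsc held 1676 counts in M2 control and 2955 with the drug, a log2 ratio of 1.20 (interval 1.12 to 1.29), and in M0 it held 4371 and 3629, a ratio of -0.37. The same M2 control library gave the low M2 to M0 ratio of Ctsc described below. Ctsh held 1278 and 2125 counts in M2, a ratio of 1.12 (interval 1.02 to 1.22), and its ratios were 0.62 in M0 and -0.16 in M1. Cst3, the secreted cystatin that inhibits cysteine cathepsins, had ratios of 0.60 in M0, -0.05 in M1 and 0.39 in M2. Of the ratios of the 11 proteases, 8 were above 0 in M0, 5 in M1, and 8 again in M2.

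The glycosidases, which take sugars off glycoproteins and glycolipids, had the highest median ratio with the drug among the groups of more than 3 genes. The median over the 8 genes was 0.78 for M0, 0.16 for M1 and 0.57 for M2. Man2b1, the lysosomal alpha-mannosidase (chromosome 8, 85083270 to 85098282), held 18135 and 41213 counts in M0, 6422 and 6852 in the M1 pair, and 20986 and 28420 in the M2 pair. Its fold with the drug was 2.12 in M0 and 1.77 in M2, and its log2 ratio in M1 was 0.19. Hexa, the alpha subunit of beta-hexosaminidase (chromosome 9, 59539540 to 59565109), held 19189 and 41300 counts in M0, 8683 and 9154 in the M1 pair, and 26022 and 33585 in the M2 pair. Those are 2.01-fold in M0, just inside the limit, and 1.68-fold in M2. With DESeq2's scaling between libraries, which moves every M0 log2 ratio by -0.0167, Hexa falls below the limit in M0. Naglu, which removes N-acetylglucosamine from heparan sulfate, held 2303 and 4680 counts in M0, 1783 and 1793 in the M1 pair, and 2264 and 3633 in the M2 pair. Its log2 ratio was 0.92 in M0, just outside the limit, and 1.07 in M2. For these 3 genes the regorafenib library was the higher of the pair in every state, by the least in M1. The acid alpha-glucosidase Gaa, which degrades glycogen, held 2771 and 5640 counts in M0, 4113 and 4212 in the M1 pair, and 3166 and 4324 in the M2 pair. It was 1.90-fold higher in M0 and 1.78-fold higher in M2. In M1 the largest drug ratio of the group was that of the beta-glucuronidase Gusb at 0.33. Gusb had the lowest ratio of the group in the other states, with 30433 and 22847 counts in M0 and 42855 and 24717 in M2, log2 ratios of -0.52 and -0.41.

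The regulators TFEB, TFE3 and MITF bind CACGTG, and their common target motif extends it by a T before or an A after. RefSeq promoters on GRCm38.p6, taken from 250 bases before to 50 bases after the start of transcription, were searched for these letters on both strands. A promoter was found for 36 of the 43 members, with 46 windows in all. Of the 10 pump genes 6 had one, and Atp6v0d2 did not. The 7 letters TCACGTG or CACGTGA, which read as each other on the opposite strand and both contain CACGTG, were in 11 of the 46 windows (23.9%), where 3.77% of the 32851 windows of all genes held them. The 6 letters CACGTG alone were in 12 windows (26.1%), against 7.15% of all windows. By gene, the 7 letters were in 11 of the 36 members with a promoter (30.6%), against 4.29% of 27025 genes. The 11 were Ctsa, Ctsd, Lgmn, Gaa, Gla, Glb1, Naglu, Lamp1, Mcoln1, Atp6v0d1 and Atp6v1a. The letters in a window are a description and do not show that a factor binds there. The 250 bases before the start are shown for the 5 of these genes with the largest absolute drug ratio in M0, since they show how near the start the shared letters lie. Capitals mark CACGTG with a T before it or an A after it where present, and the sequences run 5′ to 3′ on the gene's strand.
Gaa (GRCm38.p6 chr11:119267713-119267962, plus strand): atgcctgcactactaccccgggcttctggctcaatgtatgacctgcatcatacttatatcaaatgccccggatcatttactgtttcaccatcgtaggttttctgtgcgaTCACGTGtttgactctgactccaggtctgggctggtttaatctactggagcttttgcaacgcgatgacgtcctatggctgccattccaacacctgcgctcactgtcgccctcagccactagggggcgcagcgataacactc
Naglu (GRCm38.p6 chr11:101069844-101070093, plus strand): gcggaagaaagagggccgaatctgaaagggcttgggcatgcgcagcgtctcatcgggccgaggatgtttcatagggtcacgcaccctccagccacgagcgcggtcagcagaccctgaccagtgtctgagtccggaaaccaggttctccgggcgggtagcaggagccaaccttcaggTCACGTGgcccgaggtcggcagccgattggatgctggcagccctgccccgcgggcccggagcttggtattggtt
Ctsd (GRCm38.p6 chr7:142387828-142388077, minus strand): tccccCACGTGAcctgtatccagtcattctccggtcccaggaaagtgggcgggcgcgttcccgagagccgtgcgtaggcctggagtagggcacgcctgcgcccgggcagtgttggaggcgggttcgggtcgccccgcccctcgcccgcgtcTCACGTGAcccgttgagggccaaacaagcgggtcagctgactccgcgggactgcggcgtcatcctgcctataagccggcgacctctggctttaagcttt
Glb1 (GRCm38.p6 chr9:114400828-114401077, plus strand): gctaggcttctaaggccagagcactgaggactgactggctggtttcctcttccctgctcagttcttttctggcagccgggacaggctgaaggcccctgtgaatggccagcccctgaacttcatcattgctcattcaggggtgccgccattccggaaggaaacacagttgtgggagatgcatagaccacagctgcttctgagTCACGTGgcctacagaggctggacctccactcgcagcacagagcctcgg
Mcoln1 (GRCm38.p6 chr8:3500269-3500518, plus strand): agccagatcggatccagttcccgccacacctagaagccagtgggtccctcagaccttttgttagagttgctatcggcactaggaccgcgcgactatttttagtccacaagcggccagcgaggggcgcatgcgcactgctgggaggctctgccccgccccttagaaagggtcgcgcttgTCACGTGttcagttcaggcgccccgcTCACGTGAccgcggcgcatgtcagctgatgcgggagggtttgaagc
The letters CACGTG began 140 bases before the start in Gaa, 73 in Naglu and 48 in Glb1. Ctsd held them 245 and 98 bases before, and Mcoln1 held them 71 and 45 bases before. Lamp1 held 4 copies in its window, the most of any member. In M0 the median log2 ratio with the drug was 0.55 over the 11 members with the 7 letters and 0.26 over the 25 other members with a promoter, in M1 it was 0.06 and -0.04, and in M2 0.33 and 0.26. Psap, Man2b1, Hexa and Gpnmb, which were among the members farthest above 0 in M0, held no CACGTG in these windows.

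Of the lipid-handling genes, Psap (chromosome 10, 60277627 to 60302597) had the largest ratio. Its counts were 161774 and 383015 in M0, 107481 and 89248 in the M1 pair, and 340693 and 439985 in the M2 pair. This is 2.21-fold higher with the drug in M0 and 1.69-fold higher in M2, with a log2 ratio of -0.17 in M1. Lipa, the acid lipase that frees cholesterol from its esters, had smaller ratios of 0.23 in M0, -0.35 in M1 and 0.37 in M2. Cholesterol exporters of the lysosome had opposite signs in M2, where Npc2, the soluble carrier, had a ratio of 0.34 and Npc1, the membrane protein that takes cholesterol from it, had -0.33. The 5 membrane genes had ratios above 0 in M0 and in M2. Gpnmb, a glycoprotein of macrophages that handle much lipid, held 189952 and 381141 counts in M0 and 249549 and 265938 in M2, ratios of 0.90 and 0.48. The structural proteins Lamp1 and Lamp2 had ratios of 0.55 and 0.31 in M0 and of 0.33 and 0.27 in M2, and the calcium channel Mcoln1 had 0.64 and 0.39. In M1 the same 5 genes lay between -0.12 and 0.10. Grn had small positive ratios of 0.23, 0.14 and 0.18 in M0, M1 and M2.

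Among the transcription factors, Tfeb (chromosome 17, 47737030 to 47792419) held 1093 and 1944 counts in M0, 341 and 293 in the M1 pair, and 2456 and 2760 in the M2 pair. The M2 libraries held the most and the M1 libraries the least, and the log2 ratio with the drug was 0.73 for M0, -0.12 for M1 and 0.55 for M2. Mitf had ratios of 0.59, 0.05 and 0.51, and Tfe3, which was expressed at much the same level in every library (12.7 to 18.2), had 0.26, -0.33 and 0.16.

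The V-ATPase genes lay closer to 0 than the glycosidases in M0. Over the 10 pump genes the median log2 ratio was 0.08 for M0, -0.04 for M1 and -0.15 for M2. In M2 the counting intervals of 7 of the 10 lay below 0, including those of all 5 V1 genes and of the accessory subunit Atp6ap1, and only Atp6v0d2 lay above. With total counts in place of TMM, Atp6v0a1, Atp6v0c and Atp6v1a changed sign in M2. Atp6v1h and Atp6v1c1, subunits where V1 joins V0, had the lowest M2 ratios at -0.47 and -0.44, with 5685 and 3139 counts for Atp6v1h and 12131 and 6854 for Atp6v1c1. The catalytic subunit Atp6v1a had 0.45 in M0 and -0.04 in M2. Atp6v0d2 was the largest ratio of all members in M0. This gene (chromosome 4, 19876841 to 19922605), known from osteoclasts and from macrophages exposed to IL4, held 597 counts in M0 control and 2265 with the drug, 38 and 35 in the M1 pair, and 7878 and 11989 in the M2 pair. It was 3.54-fold higher with the drug in M0 and 1.99-fold higher in M2, and at these low counts its M1 interval ran from -0.72 to 0.68. Its common counterpart Atp6v0d1, the form of subunit d found in most tissues, had ratios of 0.08 in M0, -0.04 in M1 and -0.23 in M2. Per length, Atp6v0d2 made up 5.54% of the sum of both forms in M0 control and 16.4% with the drug, 0.371% and 0.376% in the M1 pair, and 34.2% and 54.9% in the M2 pair. The M2 regorafenib library was the only one in which Atp6v0d2 (158) was at a higher level than Atp6v0d1 (129.9). Of 7 osteoclast markers, some were higher in the M2 libraries and others were not. Ocstamp held 175 and 272 counts there and at most 4 elsewhere, and Itgb3 held 937 and 835 against at most 172. Dcstamp held 340 and 577 counts there and at most 112 elsewhere. Of the defining markers, Calcr was at 0 in the 4 M0 and M2 libraries and held 592 and 355 counts in M1, and Oscar held at most 5 counts in any library. Nfatc1 held 2141 and 2757 counts in M0 and 2106 and 1926 in M2, and Acp5 was highest in M1, with 367 and 695 counts against 177 and 282 in M2. Over the 7 markers, with Nfatc1 the largest part in every library, the summed level was 86.5 and 108 CPM in M0, 60.3 and 65.5 in the M1 pair, and 107 and 154 in the M2 pair, and the part of such cells in the Atp6v0d2 values was not tested.

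**Figure D3:**
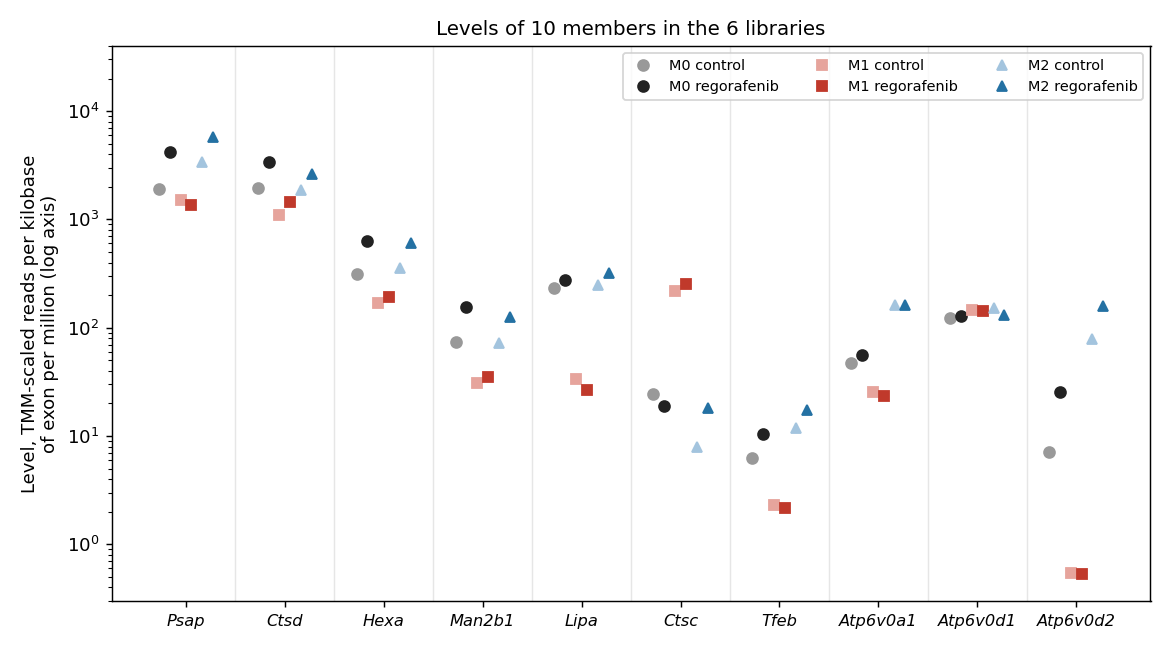
Levels of 10 of the 43 genes (x axis) in the 6 libraries, as TMM-scaled RPKM (y axis, log scale), 1 point per library with no error bar, where colour and shape give the state and the darker colour regorafenib. Atp6v0d2 runs from 0.535 to 158 across libraries while Atp6v0d1 stays between 122 and 153, and Lipa is at 33.8 and 26.5 in M1 against at least 233 elsewhere.

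Atp6v0c, the proteolipid that forms the ring of the pump, held between 1097 and 1467 counts in the 6 libraries. A processed pseudogene, Atp6v0c-ps2, named here after its values were seen, held between 5682 and 8257, which is 4.40 to 5.70 times the parent's counts. Of the 100-base words of Atp6v0c, 7.84% also occur in Atp6v0c-ps2, so the counts of Atp6v0c are uncertain. In all, 6 members shared over 5% of their words with another gene, the most being Ctsd, at 30.2% with Gm49369. That gene overlaps 34.4% of the annotated exon of Ctsd on the same strand and held 0 counts. This does not show that reads from the shared part were counted for Ctsd. On the opposite strand, 9 members overlap an exon of another gene. The partner with the most counts is Pltp, which overlaps Ctsa and held up to 15396 counts where Ctsa held at least 22544. Whether reads were counted by strand is not stated, so reads of such pairs may not be told apart.

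To ask for a drug difference shared by M0, M1 and M2, state and treatment were fitted additively over the 6 libraries with edgeR's quasi-likelihood method. The 3 libraries of each treatment then stand in for replicates, with 2 residual degrees of freedom, and a gene whose drug ratio varies with state has a large error. With this fit 0 members and 0 of 14110 genes (0.0%) passed a Benjamini-Hochberg adjusted p of 0.05 for regorafenib, while DESeq2 called 296 genes and 0 members. At an unadjusted p under 0.05, 8 members were higher (5.74% of all genes) and 1 was lower (5.86%). The higher ones were Atp6v0d2, Gaa, Man2b1, Naglu, Hexa, Glb1, Ctsd and Mitf, and the lower one was Ctsk. Naglu had a fitted log2 difference of 0.72 ± 0.22 (SE) with an edgeR adjusted p of 0.385, and Man2b1 had 0.72 ± 0.21 with 0.384. In the M0 and M2 libraries alone, with 1 residual degree of freedom, the same edgeR fit called 2 members higher (1.62% of 13538 genes) and 0 lower (1.19%). These were Naglu at 1.02 ± 0.11 (edgeR adjusted p = 0.0435) and Gaa at 0.90 ± 0.11 (edgeR adjusted p = 0.0464), both of which had ratios above 0 in 3 of 3 states. Man2b1 at 0.97 ± 0.14 (edgeR adjusted p = 0.0534) and Hexa at 0.90 ± 0.14 (edgeR adjusted p = 0.0569) lay just beyond the threshold. Leaving out 1 M1 library, either the control or the regorafenib one, gave 5 members called higher, Atp6v0d2, Gaa, Hexa, Man2b1 and Naglu, where 2.63% and 2.92% of all genes were called higher. The M1 library that remains is taken up by its own state term, so both of these fits rest, like the one before, on the M0 and M2 libraries and are not separate results. Whether the drug ratio differs between states could not be tested with 1 library per condition.

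In the M1 state the members differed widely among themselves, from Ctsc at 8.96-fold higher to Atp6v0d2 at 13.2-fold lower than in M0. Against M0 control, 4 of 43 members were at least 2-fold higher in M1 control (17.4% of 14168 genes) and 8 at least 2-fold lower (19.7%), and 16 had a ratio above 0 (48.0%). The median of the members was -0.37 against -0.05 for all genes. Marker levels differed between these libraries as well. The macrophage sum was 34428 CPM in M0 control and 25907 in M1 control, with 39757 and 8988 counts of Cd68 and 19492 and 158131 of Adgre1. The 5 dendritic cell markers summed to 0.58 and 26.3 CPM, almost all of it Ccr7 (2 and 780 counts), while Flt3 held at most 3 counts. S100a8 held 123 and 1804 counts, with Ly6g at 0, and the fibroblast marker Dcn 4 and 100. The part of these markers in the members' ratios was not tested. This comparison depends on the scaling. With total counts in place of TMM every log2 ratio is moved by -0.441, with the median of all genes at -0.49, 10 members change sign and the calls are 2 higher (12.7% of all genes) and 16 lower (29.2%). The fit over both treatments, in which each state has 2 libraries, called 5 members higher (18.5% of all genes) and 14 lower (18.2%). Without scaling factors it called 3 (11.5%) and 29 (36.2%), with the median of all genes at -0.50.

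Lipa, Gpnmb and Atp6v0d2 were the farthest below M0. Lipa (chromosome 19, 34492318 to 34527474) held 48532 and 61168 counts in the M0 libraries and 5914 and 4330 in the M1 libraries, with a fitted log2 difference of -3.00 ± 0.27 (edgeR adjusted p = 0.0011). Gpnmb (chromosome 6, 49036546 to 49070929) held 189952 and 381141 counts in M0 and 22729 and 19550 in M1, a fitted difference of -3.26 ± 0.35 (edgeR adjusted p = 0.00183). In both genes the M1 libraries lay far below both M0 libraries. Atp6v0d2 was 13.2-fold lower in M1 control than in M0 control, and its fitted difference was -4.61 ± 0.45 (edgeR adjusted p = 0.00144). The asparaginyl endopeptidase legumain (Lgmn), which activates several cathepsins, fell from 16869 and 23011 counts to 3472 and 3091, with a fitted difference of -2.18 ± 0.19. Ctsk fell too (edgeR adjusted p = 0.00213) and was 4.10-fold lower in M1 control than in M0 control, and Tfeb, with a fitted difference of -1.78 ± 0.25, was the transcription factor that fell. The other members called lower in the fit were Man2b1, Hexa, Gla, Cd63, Grn, Tpp1, Ctsd and Atp6v0a1, with fitted differences between -1.62 and -0.76. Of these, Atp6v0a1, Ctsd, Gla, Grn and Tpp1 were no longer called without the M0 regorafenib library (edgeR adjusted p between 0.0527 and 0.13), and Ctsd, Grn and Tpp1 also lost the call without at least 1 other library.

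The members called higher in M1 by the fit were few and mostly proteases, although 7 of the 11 proteases had control-pair intervals below 0. Ctsc held 4371 and 3629 counts in M0 and 32951 and 35411 in M1, 8.96-fold higher without the drug and a fitted log2 difference of 3.47 ± 0.41 (edgeR adjusted p = 0.00245). Ctsh held 1237 and 2037 counts in M0 and 4238 and 3548 in M1, a fitted 1.74 ± 0.32. Ctsz (chromosome 2, 174427493 to 174439039), a carboxypeptidase, held 31260 and 40032 counts against 70975 and 77947, a fitted 1.48 ± 0.21. Mitf had a fitted difference of 0.93 ± 0.19, so that it and Tfeb had opposite signs, but the call was lost without scaling factors (0.45, edgeR adjusted p = 0.0987) and without the M0 control library (0.78, edgeR adjusted p = 0.0762). Atp6v0c was the fifth at 0.55 ± 0.16, with the doubt given above, and its call was lost whichever library was left out (edgeR adjusted p between 0.0531 and 0.206). On the TMM scale both M1 libraries lay above both M0 libraries for each of these genes. For the V1 genes, Atp6v0d1 and Atp6ap1 the ratios of M1 to M0 were between -0.52 and 0.25 in the control pair and between -0.85 (Atp6v1a) and 0.19 in the regorafenib pair. The fit without scaling factors called Atp6v1a, Atp6v1b2 and Atp6v1c1 lower, and with total counts in the control pair Atp6v0d1, Atp6v1d, Atp6v1h and Atp6ap1 change from above to below 0.

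**Figure D4:**
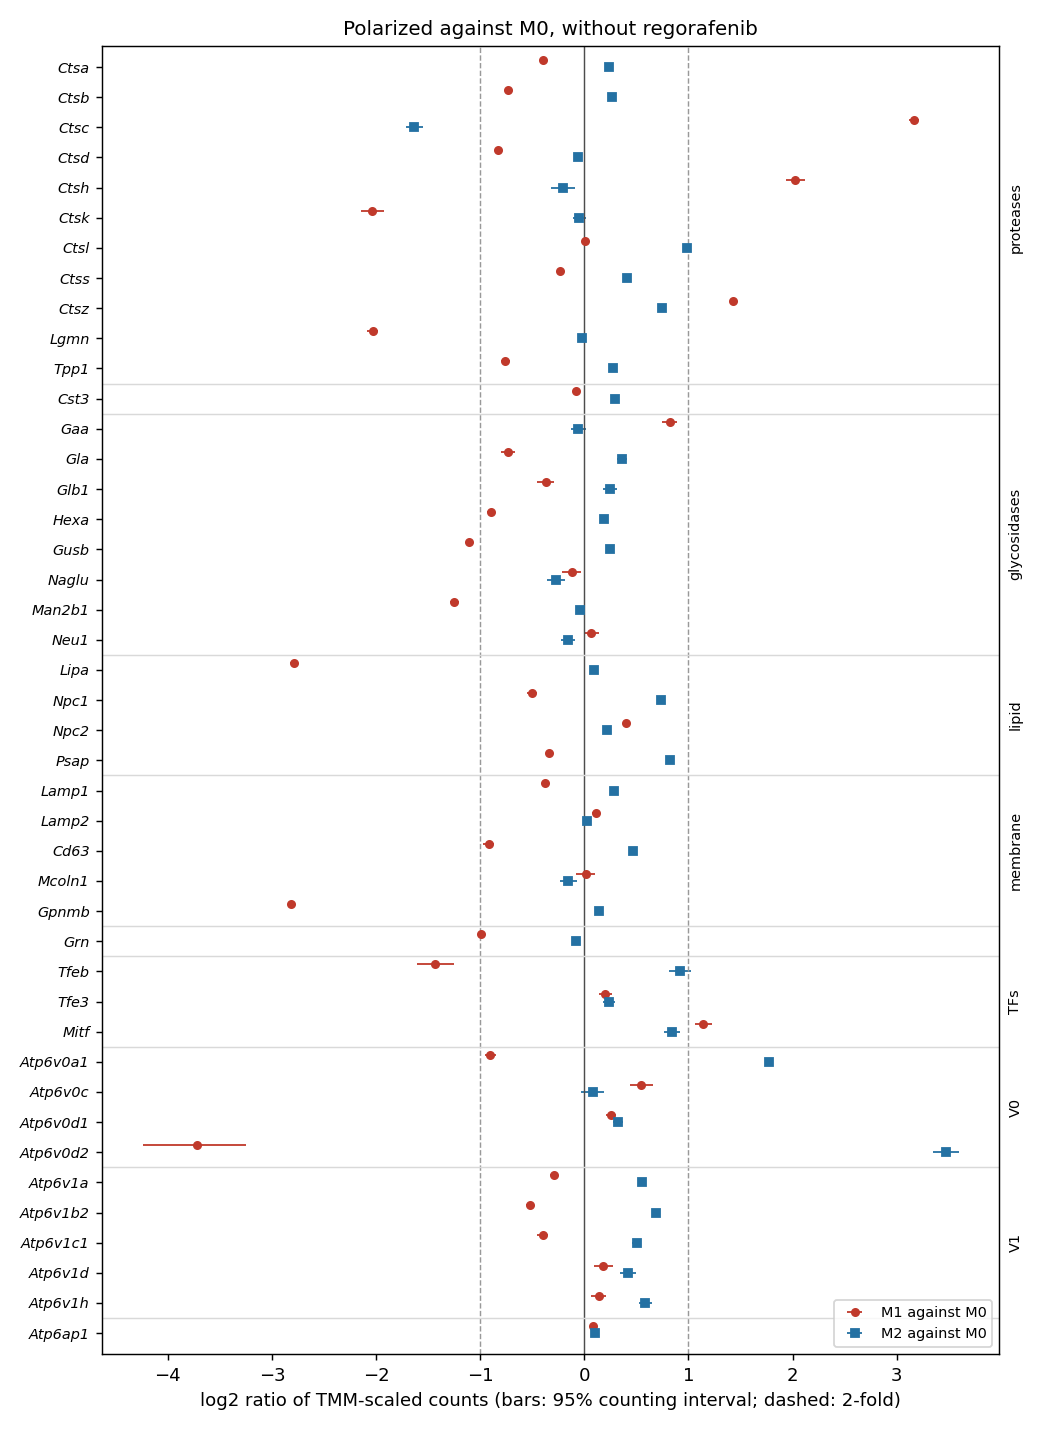
Log2 ratio of M1 control (circles) and M2 control (squares) to M0 control (x axis, TMM-scaled counts) for each of the 43 genes (y axis, grouped by role), 1 library per side and the same M0 library in both, with bars for the 95% counting interval and dashed lines at 2-fold. M1 points span -3.72 to 3.16 with a median of -0.37, and 9 of the 10 V-ATPase genes have M2 intervals above 0.

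In the M2 state, Atp6v0d2 and Atp6v0a1 of the pump were well above M0 and the other pump genes differed less. Against M0 control, 2 members were at least 2-fold higher in M2 control (4.69% of 13830 genes), Atp6v0d2 and Atp6v0a1, and 1 was at least 2-fold lower (7.61%), Ctsc. A ratio above 0 was found in 32 members (51.3% of all genes), with a median of 0.25 against 0.01. Among the 10 V-ATPase genes all 10 ratios were above 0 (that of Atp6v0c changes sign with total counts), the intervals of 9 lay above 0, and the median was 0.53. Between the regorafenib libraries of M2 and M0 the median of the pump was 0.12. The smallest ratios without the drug were those of Atp6v0c (0.08), Atp6ap1 (0.11) and Atp6v0d1 (0.32). Markers differed between these libraries too. The macrophage sum was 34428 CPM in M0 control and 22878 in M2 control, mostly Lyz2 (797716 and 610104 counts). Cd14 held 31650 and 9888 counts and Fcgr1 3072 and 710. Other macrophage markers went up, with Adgre1 at 19492 and 46339, Cd68 at 39757 and 58624, and Itgam at 5301 and 7927. Of the osteoclast markers Dcstamp held 74 and 340, Itgb3 73 and 937, and Nfatc1 2141 and 2106. The part of these markers in the members' ratios was not tested. Atp6v0d2 was 11.1-fold higher, with a log2 ratio of 3.47 (interval 3.35 to 3.60). Atp6v0a1 (chromosome 11, 101009452 to 101063719), a large V0 subunit that helps direct the pump to its membrane, held 9584 and 12081 counts in M0, 4316 and 3695 in the M1 pair, and 38881 and 29529 in the M2 pair. Both M2 libraries lay above all 4 others, and the log2 ratio of the controls was 1.77. The 5 V1 genes had ratios between 0.42 and 0.68, with Atp6v1b2 the highest. These comparisons share the M2 control library with the drug comparison in M2, where the same V1 genes had ratios between -0.47 and -0.04. Between the M2 and M0 regorafenib libraries, neither of which is a control library, the ratios of the V1 genes were between 0.07 and 0.51, that of Atp6v0a1 was 1.53 and that of Atp6v0d2 was 2.64.

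Outside the pump, Ctsl was 1.98-fold higher in M2 control (182573 against 77608 counts), and Psap, Npc1, Tfeb and Mitf had ratios between 0.74 and 0.92. Ctsc was lower in M2 control than in M0 control (log2 ratio -1.63), but between the regorafenib libraries of M2 and M0 its ratio was -0.06 (interval -0.13 to 0.01). The low value thus rests on the M2 control library, which also enters the drug ratio of Ctsc in M2. The glycosidases differed little, with a median of 0.08 and a range from -0.27 to 0.36. In the fit over both treatments 26 of 14110 genes were called higher in M2 (0.184%) and 2 lower (0.0142%), and 0 members were called in either direction. Atp6v0a1 had a fitted log2 difference of 1.65 ± 0.19 (edgeR adjusted p = 0.0582) and Atp6v0d2 one of 3.02 ± 0.38 (edgeR adjusted p = 0.0655). At an unadjusted p under 0.05, 9 members were higher (4.54% of all genes), among them 4 pump genes, and DESeq2 called 4 members higher at its adjusted threshold (0.99% of 24938 genes), Atp6v0a1, Atp6v0d2, Ctsz and Mitf.

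A wider list of 67 other lysosomal genes (hydrolases, membrane proteins, sorting receptors, remaining pump subunits and regulators of TFEB) was counted in the same way. Of these, 65 had at least 10 counts in a comparison. With regorafenib in M0, 10 were at least 2-fold higher (9.47% of all genes) and 1 lower (10.9%), with a median of 0.32 against 0.005 for all genes. In M1 the calls were 2 higher (1.76%) and 0 lower (3.46%), with a median of 0.04 against -0.02. In M2 they were 7 higher (6.15%) and 1 lower (5.07%), with a median of 0.18 against -0.03. Plbd1, a phospholipase B-like protein, held 71 and 570 counts in M0, 1851 and 2814 in the M1 pair, and 56 and 231 in the M2 pair, with log2 ratios of 2.90, 0.70 and 2.43. The cathepsins E and F had ratios of 1.77 and 2.08 in M0 and of 2.04 and 1.31 in M2. Sgsh, a sulfatase of heparan sulfate degradation, had ratios of 1.29 in M0 and 0.99 in M2, the lysosomal phospholipase Pla2g15 had 1.16 and 1.14, and the galactosylceramidase Galc had 1.05 and 0.68. Acp5, the tartrate-resistant phosphatase, which is also an osteoclast marker, had log2 ratios of 0.86 in M0, 1.02 in M1 and 1.06 in M2 at counts between 94 and 695. Atp6v1g2, a pump subunit known from neurons, held only 57 to 180 counts and had a ratio of 1.56 in M0.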

How the data were processed

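RNA of the 6 BMDM cultures was sequenced as paired reads after poly(A) selection with a stranded kit. According to the methods and the processing notes, the authors trimmed reads with cutadapt 2.4, aligned them with STAR 2.7.2a to mouse GRCm38 and deposited raw read counts per gene from STAR's gene counting. The strand setting is not given in the sources used here. Of the 54446 gene IDs, 53229 matched the Gencode annotation with their version, 1180 without it, and 37 had no name.

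Libraries were scaled by TMM (edgeR 4.0.16, R 4.3.3). A ratio of 2 libraries is the log2 ratio of scaled counts, with 0 replaced by 0.5 and an exact binomial 95% interval that covers counting error only. Genes with at least 10 counts in either library entered, and 2-fold was the limit for a call. The edgeR quasi-likelihood fit had state and treatment as terms, filterByExpr and a Benjamini-Hochberg threshold of 0.05. Its p-values measure the spread between these libraries, which are not known to come from separate animals. DESeq2 1.42.0, other scalings, filters and limits, and leaving out each library were tried. The drug term of the fit over 6 libraries was tested on simulated counts. NOISeq was not used here. RefSeq promoters were searched as letters.

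The members and the wider list were chosen with earlier results of these data known. All members could be named. Genes of the wider list were named if they differed at least 2-fold with the drug in a state and had at least 100 counts in the higher library, and promoters were shown for up to 5 members holding the 7 letters, in order of the absolute M0 drug ratio.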

Additional observations from a re-analysis of the deposited data

Results flagged for a closer look

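Cst7, which encodes cystatin F, an inhibitor of cathepsins C and L and a gene of the wider lysosomal list, had drug ratios of opposite sign between states. It held 27 and 9 counts in M0 control and regorafenib, 148 and 419 in the M1 pair, and 475 and 96 in the M2 pair. As log2 ratios, drug over control, these are -1.69 in M0 (95% counting interval -2.96 to -0.56), 1.60 in M1 (1.33 to 1.88) and -1.92 in M2 (-2.25 to -1.60). There is 1 library per condition, and the difference between the states was not tested.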

How the results depend on the processing

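With a 1.5-fold limit, 15 members were called higher with regorafenib in M0 (2650 of all 13964 genes) and 8 in M2 (12.7% of all genes), 16 lower in M1 against M0 (28.6%), and 9 higher in M2 against M0 (9.17%). Scaling by total counts gave 2 higher (12.7%) and 16 lower (29.2%) in M1 against M0. In the fits over 6 libraries, the drug term called 0 members higher, 1 with no expression filter (Atp6v0d2, with 0.622% of all genes), 2 in M0 and M2 alone (1.62%), and 0 to 5 when 1 library was left out, the 5 without either M1 library (2.63% and 2.92%). The M1 term called 5 higher and 14 lower, 3 and 29 without scaling factors (11.5% and 36.2%), and 3 to 5 higher and 9 to 18 lower when 1 library was left out, with 3 higher without M0 control (13.6%) and 9 lower without M0 regorafenib (15.2%). The M2 term called 0 higher, 4 with DESeq2 (0.99%) and 2 with no filter (Atp6v0a1 and Atp6v0d2, with 0.974% of all genes). Its calls also moved when 1 library was left out, and the fitted log2 difference of Atp6v0d2 then ran from 2.49 to 3.66. The cause of these shifts was not tested. Of the 19 members called by the M1 term, DESeq2 called all 19.

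The labels give no replicate numbers, and the fit compares control and drug within each state through its state term. With 1 library per condition, no comparison within a state has a replicate check. Low counts limit Atp6v0d2 in M1, and shared sequence limits Atp6v0c.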

Other observations

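Of the 6 regulators on the wider list, 5 had ratios above 0 with regorafenib in M0 (50.3% of all genes), 1 in M1 (46.5%) and 5 in M2 (47.3%), with medians of 0.78, -0.24 and 0.29. Rragd, a Rag GTPase that acts in nutrient sensing at the lysosome, held 743 and 2619 counts in M0, 209 and 118 in the M1 pair, and 1018 and 1790 in the M2 pair, with log2 ratios of 1.72, -0.72 and 1.20. Flcn, the folliculin that acts on Rag GTPases, held 1869 and 4214 counts in M0, 972 and 826 in the M1 pair, and 2896 and 2843 in the M2 pair, with ratios of 1.07, -0.13 and 0.36. Both genes had more counts with the drug in M0 and fewer in M1. Of the 6 sorting genes, 2 had a ratio above 0 in M1, 2 in M2 and 1 in M0. The one in M0 was the sorting receptor Sort1, with 1995 and 5133 counts in M0 and 2317 and 4501 in M2, log2 ratios of 1.26 and 1.34.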
